A study of Arabidopsis thaliana with 123 samples.

Results

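Developing Arabidopsis thaliana seeds that carried mutations in ABI3 and DOG1 (genotype abi3-12 dog1-4, labelled a double knock-out in the accession Col-0) were compared with seeds of wild-type Col-0 at 18 days after pollination (DAP). The comparison rested on 6 of the 123 sequencing libraries of the series, 3 of each genotype, which were chosen by their labels for genotype, stage and experimental round, and it covered all 20912 genes that passed a filter on low counts. All 6 came from the same round, in which the plants were grown together (batch B), and seeds pooled from 4 siliques gave each RNA sample, per the labels' protocols. Further libraries of the same round served for comparison. They were abi3-12 at 18 DAP (labelled a knock-out, 2 libraries), abi3-12 dog1-4 cyp707a2 at 18 DAP (labelled a triple knock-out, 3 libraries), and abi3-12 dog1-4 and Col-0 at 20 DAP (3 libraries each). All groups share the Col-0 background, and no treatment is named for any of them. By its labels the series holds no single mutant dog1-4 at 18 DAP, so the share of a difference that belongs to DOG1 could be read only against abi3-12. Whole seeds were extracted, and fewer cells of a type cannot be told apart from less RNA per cell.

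ABI3 is a B3-domain transcription factor that acts with LEC1, LEC2 and FUS3 to drive seed maturation, the phase in which the embryo stores protein and oil, loses its chlorophyll and becomes tolerant to drying. It binds the RY element (CATGCA) and works with bZIP factors such as ABI5 at abscisic acid (ABA) response elements with the core ACGTG. DOG1 is a main regulator of seed dormancy that acts with ABA signalling, in part through the protein phosphatases AHG1 and AHG3. CYP707A2 is an ABA 8'-hydroxylase that lowers the ABA content of the seed.

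The promoters of 4 genes that fell are shown because they hold the RY element and belong to the fallen genes with the highest wild-type level, beside that of BGLU4, the gene with the largest rise. Each run is the 250 bases before the gene's start in the RefSeq annotation of TAIR10.1, written 5′ to 3′ on the gene's strand, with CATGCA and its reverse complement TGCATG in capitals. CRU3 lies on the plus strand (4:14087306-14087555), CRA1 on the minus strand (5:17758337-17758586), and SESA3 (4:13611546-13611795), OLEO1 (4:12900180-12900429) and BGLU4 (1:22155309-22155558) on the plus strand.
CRU3: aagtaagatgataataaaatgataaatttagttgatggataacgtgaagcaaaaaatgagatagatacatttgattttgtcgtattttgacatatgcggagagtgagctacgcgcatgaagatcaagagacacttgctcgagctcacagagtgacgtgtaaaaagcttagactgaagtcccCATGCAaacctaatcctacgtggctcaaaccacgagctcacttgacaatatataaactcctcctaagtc
CRA1: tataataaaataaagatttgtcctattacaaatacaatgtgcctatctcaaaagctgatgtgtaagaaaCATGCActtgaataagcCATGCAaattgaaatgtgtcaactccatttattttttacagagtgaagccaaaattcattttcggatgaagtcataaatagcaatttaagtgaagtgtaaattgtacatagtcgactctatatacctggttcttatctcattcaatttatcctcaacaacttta
SESA3: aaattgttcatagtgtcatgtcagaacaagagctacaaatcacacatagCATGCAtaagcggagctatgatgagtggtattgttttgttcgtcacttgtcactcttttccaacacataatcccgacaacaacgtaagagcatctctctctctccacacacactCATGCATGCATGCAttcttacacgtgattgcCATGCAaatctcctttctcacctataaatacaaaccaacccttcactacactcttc
OLEO1: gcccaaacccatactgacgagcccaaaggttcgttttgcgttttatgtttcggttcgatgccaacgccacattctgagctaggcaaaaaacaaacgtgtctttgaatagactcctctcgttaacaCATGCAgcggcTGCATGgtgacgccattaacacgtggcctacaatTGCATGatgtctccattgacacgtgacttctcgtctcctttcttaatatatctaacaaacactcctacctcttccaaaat
BGLU4: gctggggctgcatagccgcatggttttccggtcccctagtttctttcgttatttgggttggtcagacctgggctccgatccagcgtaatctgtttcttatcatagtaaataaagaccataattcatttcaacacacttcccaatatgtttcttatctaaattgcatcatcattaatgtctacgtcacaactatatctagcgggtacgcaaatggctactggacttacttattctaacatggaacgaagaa

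CRU3 held 1 match, CRA1 2, OLEO1 3 and SESA3 7, counted on both strands with overlapping matches kept, and BGLU4 held none. CATGCA stood in 7.71% of the promoters of all tested genes (1577 of 20451 with a promoter in the reference). It stood in 18.4% of those of genes at least 2-fold lower in abi3-12 dog1-4 (180 of 978) and in 8.45% of those at least 2-fold higher (195 of 2308). Among all genes called lower, whatever the size of the change, the share was 9.05% (364 of 4021), close to that of all tested genes. Among the groups described below, 11 of 13 storage protein genes and 11 of 14 oleosin and lipid droplet genes held it. ACGTG was searched on both strands as well and stood in 24.2% of all promoters, in 27.3% of those of all genes called lower, in 37.7% of those of genes at least 2-fold lower and in 25 of the 28 late embryogenesis abundant (LEA) genes tested. Part of these matches lie within CACGTG, which contains ACGTG and stood in 7.70% of all promoters. A match describes the letters of the window and was not tested as a binding site.

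Library totals were 10472768 to 12174429 counts in abi3-12 dog1-4 and 3730809 to 11753152 in wild type, where replicate 1 was the shallow one. Storage protein transcripts, which define the maturing embryo, were present in all 6 libraries. The makeup of the libraries differed. The 10 genes with the most counts held 46.6% ± 0.896 (SD, n = 3) of the counts in wild type and 26.2% ± 2.91 (n = 3) in the double mutant, and the scaling factors by the trimmed mean of M values (TMM) were 0.568 to 0.63 and 0.993 to 1.07. Levels are therefore given as CPM, counts scaled to a library total that carries the TMM factor, and log2 before a value in parentheses stands for the fitted log2 fold change. With plain library totals the median over all genes moved on the log2 scale from 0.06 to 0.87. Under that scaling a change is therefore to be read relative to 0.87. Shares of all counts, given in percent, carry no TMM factor and so hold the difference in makeup. Per group, 17757 to 19536 genes had a count in wild type and 20827 to 21177 in the double mutant. The libraries of 1 group come from separate pools per the labels. The p-values rest on the spread between pools within groups, estimated over all batch B groups in 1 fit and not from these 6 libraries alone.

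At the mutated loci, DOG1 (AT5G45830, 5:18589418-18591506 in TAIR10.1) stood at 14.6, 13.2 and 14.6 CPM in the 3 libraries of abi3-12 dog1-4 and at 434, 436 and 481 CPM in wild type. The groups were far apart, with a fitted difference of -4.99 (SE 0.27, adjusted p = 3.49e-25) on the log2 scale, and abi3-12 was near wild type at 348 and 487 CPM. The libraries were made strand-specific but the strand setting of the counting is not given in the sources used here, so sense and antisense transcripts of this locus cannot be told apart. ABI3 (AT3G24650, 3:8997370-9001185) was still transcribed, at 283, 322 and 303 CPM in the double mutant, 368 and 406 CPM in abi3-12 and 411, 440.0 and 423 CPM in wild type. Its double mutant and wild-type libraries did not overlap, with a log2 difference of -0.49 (SE 0.10, adjusted p = 6.77e-05), whose sign turns with plain library totals. A transcript level says nothing about the ABI3 protein. CYP707A2 (AT2G29090, 2:12494826-12499723), which carries no mutation in either genotype by the labels, was not called by edgeR's quasi-likelihood test (0.62, adjusted p = 0.111). Its call depended on the processing. It was called higher with DESeq2 (log2 0.71, adjusted p = 0.034), with plain library totals (1.45, 4.09e-05) and without wild-type replicate 2 (0.99, 0.0468), replicate 2 (0.85, 0.0345) or replicate 3 (0.87, 0.0271) of the double mutant. Without replicate 1 of the double mutant its value was -0.05 (adjusted p = 0.962). Its libraries overlapped, at 25.7, 9.53 and 9.29 CPM in the double mutant, where replicate 1 was the high one, and 5.96, 12.4 and 8.85 CPM in wild type. ABA2 (AT1G52340, 1:19489794-19491650), an enzyme of ABA synthesis, was not called either (0.31, adjusted p = 0.157), but was called higher with plain library totals (1.13, adjusted p = 1.57e-07).

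Of the 20912 genes tested, 8621 (41.2%) were called at an adjusted p under 0.05 by edgeR's quasi-likelihood test with Benjamini-Hochberg adjustment. Of these, 4550 genes (21.8% of those tested) were higher in abi3-12 dog1-4 and 4071 (19.5%) were lower, so 52.8% of the called genes were higher. With plain library totals 14435 genes were called higher and 685 lower, a share of 95.5%, so the balance of higher and lower genes depends on the scaling. Changes of at least 2-fold by fitted value were more one-sided, with 2358 called genes (11.3%) higher and 1001 (4.79%) lower. Both counts include genes with no count in a group, whose fitted value is no measured fold. A level of 3 counts per library stood for a mean of 0.772 CPM in wild type and 0.253 CPM in the double mutant. The part of this difference in the split was not tested, and the split was not counted under other scalings. CRU3 and CRA1, at the upper end of the counts, were on the lower side, as the plot of change against level shows. In a principal component analysis of the 18 DAP libraries, the first component (48.4% of the variance) ran from wild type (-113 to -85) over abi3-12 (5.77 to 20.1) and the triple mutant (28.4 to 37) to abi3-12 dog1-4 (54.5 to 58.7).

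**Figure D1:**
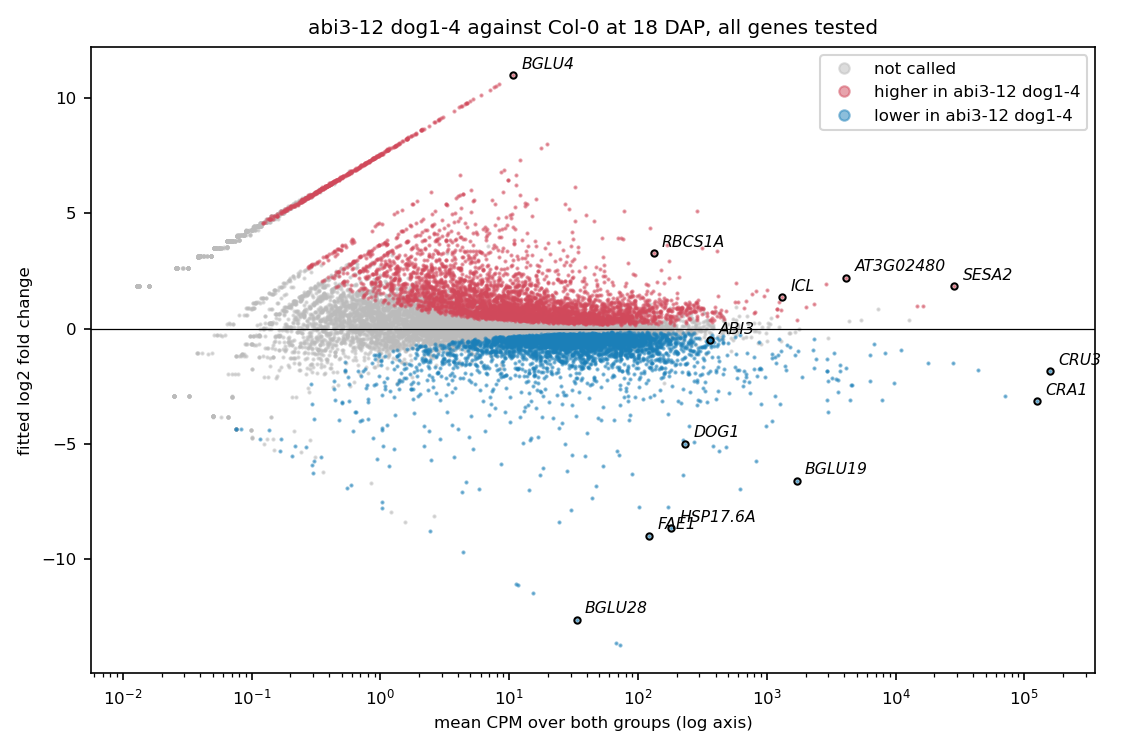
Fitted log2 fold change of abi3-12 dog1-4 against Col-0 at 18 DAP (vertical axis) against the mean CPM of both groups (horizontal log axis), 1 point per gene tested, with genes called higher in red, called lower in blue and the rest in grey. The straight upper band holds genes with no count in wild type, whose fitted value is no measured fold, and CRU3 and CRA1 lie at the far right below 0.

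Seed storage proteins, the nitrogen store of the seed, fell. Of 13 genes on the list, all tested, 9 were called lower and 1 higher, with a median log2 fold change of -1.80 against 0.06 over all genes (8 lower and 4 higher with plain library totals). Together they took 43.9% ± 0.666 of all counts in wild type, 31.7% ± 0.424 in abi3-12 (n = 2), 20.9% ± 2.83 in abi3-12 dog1-4 and 27.8% ± 1.85 in the triple mutant. The cruciferin gene CRA1 (AT5G44120), which encodes a subunit of the 12S globulin, stood at 24725, 27974 and 22950 CPM in the double mutant and 197500, 252210 and 226710 CPM in wild type. Every mutant library lay below every wild-type one, with a log2 difference of -3.16 (SE 0.30, adjusted p = 2.76e-14). CRU3 (AT4G28520), another 12S subunit, stood at 57083, 79681 and 70107 CPM against 227780, 244030 and 263350 CPM, again without overlap (log2 -1.83, SE 0.31, adjusted p = 1.01e-06). The vicilin-like gene PAP85 (AT3G22640) stood at 716, 1107 and 917 CPM against 7000, 8996 and 7675 CPM and was called lower (log2 -3.11, SE 0.27, adjusted p = 1.99e-15). The 2S albumins did not move together. SESA3 (AT4G27160) was lower at 13548, 20624 and 15141 CPM against 120510, 127530 and 126290 CPM (log2 -2.92, SE 0.32, adjusted p = 9.55e-12), while its neighbour SESA2 (AT4G27150) was higher at 38385, 55042 and 40601 CPM against 13888, 10459 and 12933 CPM (log2 1.85, SE 0.31, adjusted p = 1.08e-06). The 4 albumin genes SESA1 to SESA4 lie side by side and are close copies, so the split of reads between them is uncertain, and SESA2 was named after its values were seen. In abi3-12 SESA2 was higher still, at 80958 and 106970 CPM.

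Oleosins, which coat the oil bodies, and other lipid droplet proteins fell. Of 14 genes 12 were called lower and 1 higher, with a median log2 fold change of -2.22. OLEO1 (AT4G25140) stood at 12039, 16948 and 15294 CPM in the double mutant and 37732, 45688 and 39689 CPM in wild type. Its groups did not overlap (log2 -1.48, SE 0.22, adjusted p = 1.26e-07). OLEO2 (AT5G40420) was lower at 2641, 3437 and 3456 CPM against 15069, 17012 and 17046 CPM (log2 -2.37, SE 0.19, adjusted p = 2.16e-17). OLEO3 (AT5G51210) stood at 2.54, 2.89 and 4.53 CPM against 169, 110.0 and 123 CPM (log2 -5.31, SE 0.25, adjusted p = 4.08e-28). The 1 member that was higher was AT2G47780, a rubber elongation factor family protein related to small rubber particle proteins, named after its values were seen, at 121, 94.2 and 75.1 CPM against 9.36, 14.4 and 8.66 CPM (log2 3.11, SE 0.19, adjusted p = 4.42e-22).

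The enzymes of fatty acid and oil synthesis showed no common direction, with 6 of 24 genes called higher, 5 lower and a median log2 fold change of 0.03 (19 higher and 2 lower with plain library totals). FAE1 (AT4G34520, 4:16494205-16495842), the elongase that makes the very long chain fatty acids of seed oil, stood at 0.539, 0.289 and 0.556 CPM in abi3-12 dog1-4 and 285, 206 and 241 CPM in wild type. All mutant libraries were under 1 CPM, with a log2 difference of -8.98 (SE 0.64, adjusted p = 1.33e-16). It was also near 0 in abi3-12, at 1.50 and 0.393 CPM. The sucrose synthase genes went in opposite directions. SUS3 (AT4G02280) was lower at 424, 425 and 391 CPM against 1232, 1532 and 1366 CPM (log2 -1.74, SE 0.10, adjusted p = 5.20e-23) and SUS2 (AT5G49190) was higher at 25.2, 34.0 and 46.3 CPM against 5.53, 7.49 and 4.72 CPM (log2 2.53, SE 0.27, adjusted p = 6.95e-12). FAD2 (AT3G12120), the oleate desaturase, was named after its values were seen and was higher at 898, 1141 and 995 CPM against 694, 540.0 and 588 CPM (log2 0.74, SE 0.20, adjusted p = 0.00195).

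LEA proteins and dehydrins, which are linked to drying tolerance, were mostly lower. Of 29 listed genes 28 passed the filter, and 21 were called lower, 2 higher and 5 not called, with a median log2 fold change of -1.21. Their summed share of the counts differed by less than 1 SD, at 2.42% ± 0.139 in the double mutant and 2.51% ± 0.269 in wild type, and with plain library totals 14 members were called lower and 7 higher. The changes within the list spanned a wide range. EM6 (AT2G40170), needed for normal water loss at the end of maturation, stood at 44.2, 24.3 and 23.4 CPM against 1136, 2269 and 1460 CPM, with no overlap (log2 -5.72, SE 0.28, adjusted p = 3.33e-27). AT3G53040 was lower at 13.1, 8.85 and 8.10 CPM against 853, 1619 and 1244 CPM (log2 -6.95, SE 0.32, adjusted p = 1.66e-28). The dehydrin gene AT4G39130 had no count in any double mutant library and stood at 19.6, 24.0 and 24.6 CPM in wild type, which made it at least 89.9-fold lower, as computed from a floor of 3 counts per library. RAB18 (AT5G66400), an ABA-responsive dehydrin named after its values were seen, stood at 2202, 1475 and 1221 CPM against 4346, 6970 and 5982 CPM (log2 -1.82, SE 0.20, adjusted p = 4.93e-12). AT3G02480, an LEA family protein, went the other way at 5960, 6568 and 7928 CPM against 1451, 1386 and 1578 CPM (log2 2.21, SE 0.18, adjusted p = 3.80e-17), and was at 11413 and 12729 CPM in abi3-12.

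Heat shock factors and chaperones of the seed fell. Of 17 genes 12 were called lower and none higher, with a median log2 fold change of -3.43 over all tested and of -2.45 over the 14 with a fold or a bound. HSFA9 (AT5G54070, 5:21943983-21945651), the seed-specific heat shock factor downstream of ABI3, stood at 1.69, 0.289 and 0.397 CPM in the double mutant, 1.86 and 2.49 CPM in abi3-12 and 72.8, 116 and 90.7 CPM in wild type. The mutant libraries lay far below wild type (log2 -6.81, SE 0.37, adjusted p = 1.61e-24). The small heat shock protein genes HSP17.6A (AT5G12030) and HSP17.4 (AT3G46230) followed. HSP17.6A stood at 0.615, 1.44 and 0.715 CPM against 293, 514 and 280.0 CPM (log2 -8.64, SE 0.63, adjusted p = 1.18e-18), and HSP17.4 at 22.8, 24.1 and 18.3 CPM against 545, 983 and 682 CPM (log2 -5.09, SE 0.34, adjusted p = 3.64e-20). The disaggregase gene HSP101 (AT1G74310) was lower by less, at 99.9, 110.0 and 94.1 CPM against 384, 570.0 and 461 CPM (log2 -2.22, SE 0.26, adjusted p = 5.94e-11).

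Other genes of late maturation were mixed. Of 10 genes for tonoplast aquaporins and antioxidant proteins 6 were called lower and 2 higher, with a median of -1.23 (-1.44 with groups at 0 set to their bound). TIP3;1 (AT1G73190), an aquaporin of protein storage vacuoles, stood at 1179, 1471 and 1178 CPM against 5224, 6624 and 5908 CPM (log2 -2.21, SE 0.35, adjusted p = 3.96e-07). PER1 (AT1G48130), a seed peroxiredoxin, stood at 1160, 1305 and 1270 CPM against 5073, 6361 and 5519 CPM (log2 -2.18, SE 0.29, adjusted p = 3.80e-09). The metallothionein gene MT4B (AT2G23240) was lower at 9.54, 5.39 and 4.05 CPM against 66.4, 126 and 81.7 CPM (log2 -3.86, SE 0.27, adjusted p = 2.33e-19). Both called rises were catalases, of which CAT2 (AT4G35090) stood at 279, 341 and 268 CPM against 97.9, 117 and 92.5 CPM (log2 1.53, SE 0.24, adjusted p = 1.59e-07). It was named after its values were seen. Of 6 enzymes of raffinose family sugars 3 were called lower and 1 higher (1 and 3 with plain library totals). Stachyose synthase STS (AT4G01970) was lower at 83.4, 105 and 92.3 CPM against 240.0, 248 and 261 CPM (log2 -1.42, SE 0.18, adjusted p = 1.10e-09).

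**Figure D2:**
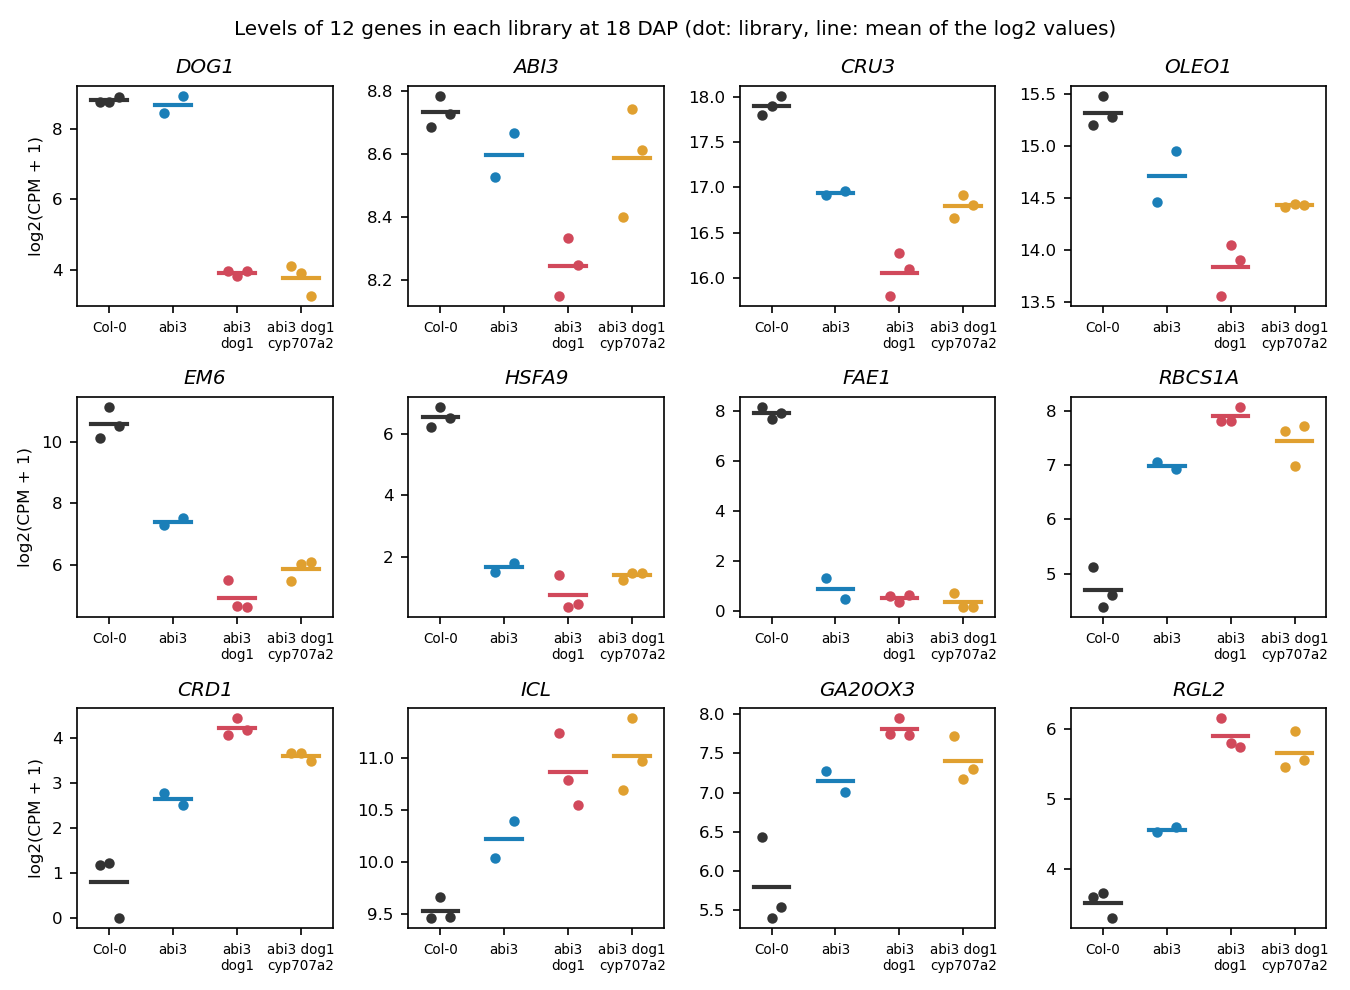
Level of 12 genes as log2(CPM + 1) in each library at 18 DAP, with a scale of its own per gene. Dots are libraries (Col-0, 3; abi3-12, 2; abi3-12 dog1-4, 3; abi3-12 dog1-4 cyp707a2, 3) and lines are means of the log2 values; DOG1 is low in the 2 genotypes with dog1-4, while HSFA9 and FAE1 are low in all 3 mutants.

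Photosynthesis genes rose. Of 42 nuclear genes of the light-harvesting complexes, photosystems and carbon fixation, 29 were called higher and 1 lower, with a median log2 fold change of 2.34 (2.31 with groups at 0 set to their bound). Together they took 0.0725% ± 0.00606 of the counts in abi3-12 dog1-4 and 0.0112% ± 0.000802 in wild type. RBCS1A (AT1G67090), the small subunit of Rubisco, stood at 224, 223 and 268 CPM in the double mutant, 132 and 121 CPM in abi3-12 and 34.0, 19.8 and 23.4 CPM in wild type. The double mutant was the highest of these groups, without overlap (log2 3.26, SE 0.32, adjusted p = 2.17e-13 against wild type). PSBR (AT1G79040), a photosystem II subunit named after its values were seen, stood at 53.2, 58.7 and 57.1 CPM against 7.66, 7.19 and 6.30 CPM (log2 3.01, SE 0.20, adjusted p = 1.19e-20). PSAN (AT5G64040), a photosystem I subunit, had no count in wild type and stood at 1.92, 2.50 and 2.22 CPM. LHCB4.1 (AT5G01530), an antenna protein, was the member called lower, at 36.1, 29.4 and 27.9 CPM against 46.8, 80.6 and 70.8 CPM (log2 -1.11, SE 0.14, adjusted p = 1.57e-09), with an adjusted p of 0.0526 with plain library totals. The genes LHCB1.1 to LHCB1.3 and the RBCS genes other than RBCS1A are close copies, and the split of reads between them is uncertain. Counts of plastid genes took 0.379% to 0.537% of all counts in the double mutant and 0.141% to 0.169% in wild type. Those of mitochondrial genes took 0.178% to 0.246% and 0.0476% to 0.0513%. Both shares were higher in the double mutant in these libraries made by poly(A) capture, but they carry no TMM factor. The part of the organelle counts in the photosynthesis result was not tested.

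Chlorophyll genes moved in opposite directions by function. Of 13 genes of chlorophyll synthesis and greening 10 were called higher and none lower, with a median of 2.12 (1.96 with groups at 0 set to their bound). CRD1 (AT3G56940), a cyclase of chlorophyll synthesis named after its values were seen, stood at 15.7, 20.6 and 16.9 CPM in the double mutant and 1.28, 1.35 and 0 CPM in wild type. Its groups did not overlap (log2 4.36, SE 0.54, adjusted p = 3.83e-10). PORB (AT4G27440), a protochlorophyllide reductase, stood at 5.77, 6.16 and 6.28 CPM against 0, 0.599 and 0 CPM (log2 4.37, SE 0.92, adjusted p = 7.52e-05). Of 8 genes of chlorophyll breakdown 6 were called lower and none higher, with a median of -0.88 (-0.07 with plain library totals, where 3 were called lower and 1 higher). The stay-green gene SGR2 (AT4G11910) stood at 30.9, 23.7 and 27.3 CPM against 108, 182 and 127 CPM (log2 -2.36, SE 0.18, adjusted p = 8.18e-18). PAO (AT3G44880), the pheophorbide oxygenase that opens the chlorophyll ring, stood at 83.2, 85.7 and 81.4 CPM against 253, 352 and 317 CPM (log2 -1.88, SE 0.19, adjusted p = 5.76e-13). NYC1 (AT4G13250), a chlorophyll b reductase, was lower at 198, 160.0 and 164 CPM against 297, 367 and 342 CPM (log2 -0.95, SE 0.16, adjusted p = 2.07e-06), which was not called with plain library totals (adjusted p = 0.444).

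Among the regulators of maturation, 7 of the 11 tested were called lower and none higher, with a median of -0.42 whose sign turned with plain library totals (0.38, with 7 called higher and 1 lower). LEC1, LEC2, MYB118 and MYB115 did not pass the filter. FUS3 (AT3G26790), the B3 factor nearest in function to ABI3, stood at 33.8, 44.5 and 48.6 CPM in the double mutant and 112, 104 and 97.2 CPM in wild type, without overlap (log2 -1.30, SE 0.16, adjusted p = 6.03e-10). Of 9 genes for ABI4, ABI5 and other group A bZIP factors 5 were called lower and 2 higher (2 and 4 with plain library totals). The 2 were BZIP67 and ABI4, and none was called higher without wild-type replicate 2 or without replicate 3 of the double mutant. ABI4 also lost its call without wild-type replicate 3 (adjusted p = 0.0569) and without replicate 2 of the double mutant (0.0631). ABI5 (AT2G36270), the bZIP factor of ABA response in seeds, stood at 81.3, 97.3 and 60.9 CPM against 244, 301 and 290.0 CPM (log2 -1.80, SE 0.19, adjusted p = 1.12e-12). EEL (AT2G41070), which competes with ABI5 at the Em1 promoter, stood at 143, 188 and 213 CPM against 516, 424 and 483 CPM (log2 -1.38, SE 0.16, adjusted p = 2.48e-11). BZIP67 (AT3G44460) was one of the pair called higher, at 233, 273 and 311 CPM against 179, 134 and 172 CPM (log2 0.76, SE 0.27, adjusted p = 0.0198), and the call was lost without wild-type replicate 2 (adjusted p = 0.0844) and without replicate 3 of the double mutant (0.0804).

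The lists of ABA genes differed, and only that of receptors, phosphatases and kinases had calls in both directions. Of 12 tested genes of ABA synthesis and breakdown 5 were called lower and none higher, with a median of -0.80. With plain library totals that median was 0.02, and 3 were called lower and 4 higher. ABA1 (AT5G67030), zeaxanthin epoxidase, was lower at 70.9, 75.4 and 67.2 CPM against 146, 188 and 170.0 CPM (log2 -1.24, SE 0.13, adjusted p = 1.04e-12), and CYP707A1 (AT4G19230), an ABA 8'-hydroxylase of mid-maturation, was lower at 3.08, 3.18 and 3.18 CPM against 25.5, 22.3 and 16.5 CPM (log2 -2.74, SE 0.36, adjusted p = 4.18e-09). Of 24 tested genes of ABA receptors, phosphatases and kinases 10 were called lower and 6 higher, with a median of -0.08 (4 and 15 with plain library totals). The phosphatase AHG1 (AT5G51760), a partner of DOG1, stood at 54.5, 40.9 and 43.0 CPM in the double mutant, 149 and 174 CPM in abi3-12 and 163, 196 and 171 CPM in wild type. Its level parted from both other genotypes (log2 -1.94, SE 0.17, adjusted p = 1.75e-15 against wild type). AHG3 (AT3G11410), the other phosphatase that DOG1 binds, stood at 130.0, 126 and 143 CPM against 261, 289 and 287 CPM (log2 -1.07, SE 0.15, adjusted p = 3.10e-08), a call that was lost with plain library totals (adjusted p = 0.116). The receptor gene PYL12 (AT5G45870) was lower at 1.69, 3.08 and 2.14 CPM against 26.0, 22.6 and 23.8 CPM (log2 -3.39, SE 0.25, adjusted p = 1.22e-18). Against these falls, the phosphatase HAI3 (AT2G29380) and the kinase SNRK2.3 (AT5G66880), both named after their values were seen, were higher. HAI3 stood at 162, 117 and 95.9 CPM against 31.1, 41.4 and 29.9 CPM (log2 1.86, SE 0.19, adjusted p = 8.14e-13), and SNRK2.3 at 60.2, 46.0 and 41.7 CPM against 17.9, 21.1 and 14.6 CPM (log2 1.46, SE 0.17, adjusted p = 4.46e-11).

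Of 13 genes of the DOG1 family and other dormancy regulators 7 were called lower and 5 higher (5 and 6 with plain library totals). The DOG1-like gene AT4G18650 stood at 21.9, 19.9 and 17.4 CPM in the double mutant and 128, 164 and 154 CPM in wild type (log2 -2.92, SE 0.22, adjusted p = 1.17e-17), and at 19.2 and 14.1 CPM in abi3-12, where DOG1 itself was near wild type. SOM (AT1G03790), a zinc finger protein that represses germination, was lower at 140.0, 97.9 and 92.8 CPM against 460.0, 613 and 577 CPM (log2 -2.32, SE 0.15, adjusted p = 5.28e-21). PIF1 (AT2G20180), the phytochrome-interacting factor that represses germination in the dark, was higher at 32.3, 21.4 and 20.2 CPM against 0, 4.50 and 3.54 CPM (log2 2.90, SE 0.26, adjusted p = 3.43e-15). MFT (AT1G18100), a regulator of ABA and gibberellin response in seeds, was higher at 204, 189 and 174 CPM against 60.8, 51.4 and 42.7 CPM (log2 1.89, SE 0.23, adjusted p = 1.71e-10). PIF1 and MFT were named after their values were seen.

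Gibberellin promotes germination against ABA, and several of its genes were higher. Of 17 listed genes 13 were tested, and 6 were called higher and 1 lower, with a median of 0.70 (0.74 with groups at 0 set to their bound). That median was 0.29 without replicate 1 of the double mutant, 0.48 without its replicate 2 or without wild-type replicate 2, 0.35 with DESeq2, 0.28 with no filter on low counts and 1.49 with plain library totals. The member called lower was at least 2-fold lower by fitted value, but its libraries overlapped between the genotypes. Without wild-type replicate 2 none was called lower. GA20OX3 (AT5G07200), a gibberellin 20-oxidase, stood at 214, 246 and 211 CPM in the double mutant and 85.5, 41.2 and 45.6 CPM in wild type. The groups did not overlap (log2 2.02, SE 0.30, adjusted p = 7.55e-08). GA20OX1 (AT4G25420) stood at 13.9, 13.9 and 8.42 CPM and had no count in wild type, at least 15.6-fold higher. The DELLA protein gene RGL2 (AT3G03450), a repressor of germination, was also higher, at 70.0, 54.3 and 52.6 CPM against 11.1, 11.7 and 8.85 CPM (log2 2.49, SE 0.22, adjusted p = 4.04e-15). The final enzymes of the pathway were at the floor, with no count of GA3OX1 in either genotype. Of 9 expansin and GASA genes 4 were called higher and none lower. EXPA2 (AT5G05290), an expansin of germinating seeds, stood at 8.08, 4.14 and 4.93 CPM and EXPA3 (AT2G37640) at 7.54, 4.62 and 3.57 CPM, and neither had a count in wild type.

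Genes that turn stored oil into sugar were higher by a modest factor. Of 15 genes of oil breakdown and the glyoxylate cycle 9 were called higher and 1 lower, with a median of 0.50. Isocitrate lyase ICL (AT3G21720) stood at 2425, 1777 and 1502 CPM in the double mutant and 704, 812 and 709 CPM in wild type, without overlap (log2 1.36, SE 0.14, adjusted p = 4.25e-13). Malate synthase MLS (AT5G03860) stood at 1490, 1186 and 1052 CPM against 345, 488 and 388 CPM (log2 1.61, SE 0.13, adjusted p = 1.72e-16). PCK1 (AT4G37870), the carboxykinase at the entry to sugar synthesis, stood at 1681, 1492 and 1392 CPM against 418, 540.0 and 461 CPM (log2 1.68, SE 0.10, adjusted p = 2.73e-23). In each of these genes replicate 1 of the double mutant was the highest library.

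Beta-glucosidases and glucosinolate genes moved in both directions, with 7 of 13 tested genes called higher and 2 lower. The 7 became 3 with DESeq2, 2 without wild-type replicate 2 and 4 without wild-type replicate 3 or without replicate 2 of the double mutant. BGLU19 (AT3G21370) was the most changed of those with counts in both groups, at 37.8, 36.0 and 31.5 CPM against 2776, 4354 and 2993 CPM (log2 -6.59, SE 0.52, adjusted p = 2.60e-17). The myrosinase TGG1 (AT5G26000) was lower at 282, 270.0 and 208 CPM against 564, 660.0 and 544 CPM (log2 -1.22, SE 0.18, adjusted p = 3.72e-08). Its paralog TGG2 (AT5G25980) had no count in wild type and stood at 13.2, 8.76 and 5.16 CPM. Of 11 clock genes 8 were called lower and none higher, by small amounts with a median of -0.61 that turned to 0.21 with plain library totals, where 4 were called higher and none lower. GI (AT1G22770) was among them at 48.5, 54.8 and 49.6 CPM against 89.8, 102 and 88.9 CPM (log2 -0.88, SE 0.13, adjusted p = 2.38e-08), a call lost with plain library totals (adjusted p = 0.598). Of 19 cell division genes 3 were called higher and none lower, a smaller share than the 21.8% of all genes called higher, and most libraries held few counts of any of them. MCM2 (AT1G44900), a helicase subunit of DNA replication, stood at 2.85, 1.44 and 2.14 CPM against 0, 0.450 and 0 CPM.

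**Figure D3:**
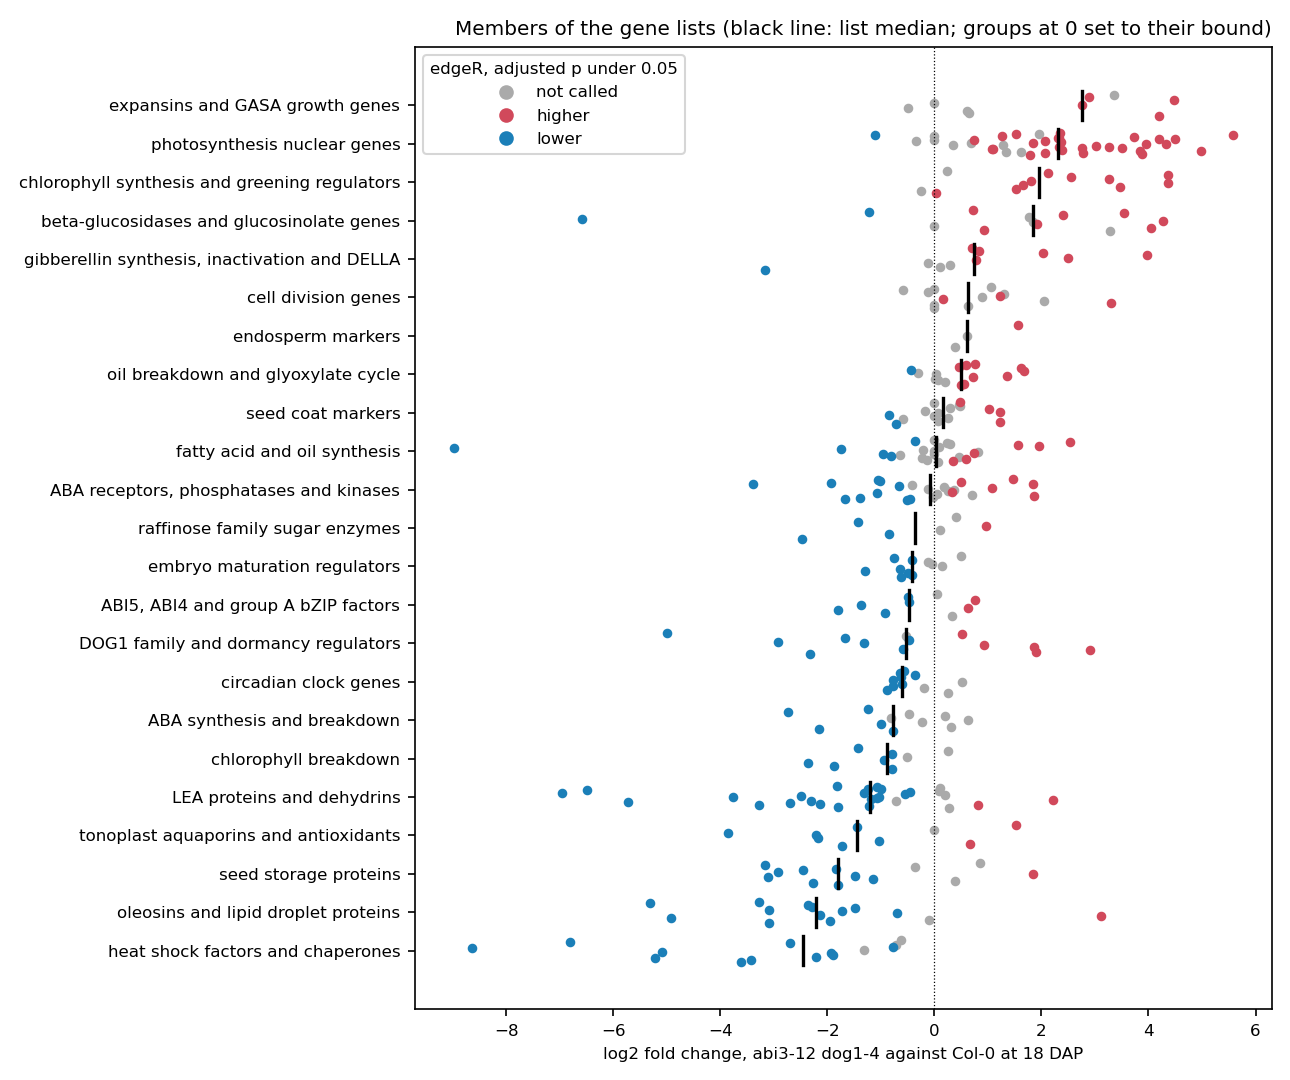
Log2 fold change of abi3-12 dog1-4 against Col-0 at 18 DAP for the members of 23 gene lists, 1 dot per gene and lists ordered by their median (black line). Genes called higher are red, called lower blue, the rest grey, and genes with a group at 0 are drawn at the bound from 3 counts per library; heat shock, oleosin and storage genes lie mostly left of 0 and photosynthesis genes right.

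Markers of the other seed tissues were read beside these groups. The 17 seed coat markers summed to 0.184% to 0.232% of counts in the double mutant and 0.0857% to 0.0969% in wild type, and 4 of the 16 tested were called higher, 2 lower (11 and 0 with plain library totals, 8 and 2 of 14 where the fit held only the groups compared). The seed coat laccase TT10 (AT5G48100) stood at 1156, 1136 and 1464 CPM against 868, 911 and 947 CPM, without overlap, and was not called (adjusted p = 0.4). It was called higher where the fit held only the groups compared (log2 0.47, adjusted p = 0.0164) and with plain library totals (1.27, 0.00561). Of 7 endosperm markers 3 were tested and 1 was called higher. The endosperm gene EPR1 (AT2G27380) stood at 21622, 12366 and 9272 CPM against 10017, 13829 and 9149 CPM, with replicate 1 of the double mutant the highest, and was not called (adjusted p = 0.24; with plain library totals 1.21 and 3.07e-05). MAN7 (AT5G66460), an endo-mannanase of the seed, was higher at 37.4, 29.7 and 34.2 CPM against 11.9, 9.59 and 13.2 CPM (log2 1.57, SE 0.23, adjusted p = 6.32e-08). The summed share of the endosperm markers was 0.965% to 2.31% in the double mutant and 0.533% to 0.786% in wild type. Both summed shares, of seed coat and endosperm markers, carry no TMM factor and so also hold the difference in library makeup. The part of these tissues in the differences above was not tested.

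The 10 rises ranked largest by fitted value, among called genes without overlap and with at least 5 CPM in a group, all had no count in wild type. Their order is therefore no order of measured folds, and genes with a wild-type count, such as CRD1 (log2 4.36) and PORB (4.37), lay above the lowest of the bounds given here. BGLU4 (AT1G60090), a beta-glucosidase, stood at 32.9, 15.5 and 16.0 CPM in the double mutant, at least 27.8-fold higher, and was lower in abi3-12 at 3.93 and 3.40 CPM. CYP83B1 (AT4G31500), an enzyme of indole glucosinolate synthesis, stood at 15.8, 22.2 and 12.2 CPM, at least 21.7-fold higher. The others were AT4G30450 (glycine-rich protein), AT1G57590 (a pectin esterase), CORI3, GA20OX1, AT1G28660 (GDSL-like lipase), AGP31 (an arabinogalactan protein), AT1G08890 (a major facilitator transporter) and IGMT5 (an O-methyltransferase), at least 12 to 20.4-fold higher. AT1G57590 differed from the rest, since it was higher in abi3-12 (34.0 and 36.5 CPM) than in the double mutant (10.7, 19.1 and 15.6 CPM).

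Of the 10 falls ranked largest by fitted value under the same conditions, 7 were genes with no count in any double mutant library. A fitted value is no measured fold there, and ATSDI1 (log2 -7.73), AT3G53040 (-6.95) and HSFA9 (-6.81), which had counts in both groups, lay beyond the lowest of the bounds given here. The cineole synthase genes AT3G25820 and AT3G25830 (both TPS-CIN), which are near-identical copies with an uncertain split of reads, stood at 137, 142 and 153 and at 127, 133 and 144 CPM in wild type, and had no count in abi3-12 either. They were at least 571 and 533-fold lower, and DESeq2 did not call them (adjusted p = 0.38 and 0.385). BGLU28 (AT2G44460) stood at 57.0, 65.9 and 77.7 CPM in wild type and was at least 265-fold lower. AT2G31985 (a DUF1264 protein), AT3G25160 (an ER lumen receptor family protein), AT4G39130 and AT2G15020 were at least 121, 93.4, 89.9 and 34.7-fold lower. The remaining falls were FAE1, HSP17.6A and SULTR1;2 (AT1G78000), a root-type sulfate transporter. SULTR1;2 stood at 0.231, 0 and 0.159 CPM against 42.1, 52.5 and 51.9 CPM (log2 -8.37, SE 0.47, adjusted p = 7.46e-24).

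To read what dog1-4 added, abi3-12 dog1-4 was compared with abi3-12, which has 2 libraries at this stage. Of 20912 genes 2584 (12.4%) were called, 1288 (6.16%) higher and 1296 (6.2%) lower. The number was 1005 where the fit held only the groups compared and 1464 without abi3-12 replicate 2, and with plain library totals 8302 were called, 94.6% of them higher. The comparisons of either genotype with wild type share the wild-type libraries, so their values are given side by side. Against wild type, 6076 genes were called in abi3-12 and 8621 in the double mutant. Storage genes had a median log2 difference from wild type of -0.87 in abi3-12 and -1.80 in the double mutant, and 7 of 13 were called lower between the 2 mutants. Oleosins stood at -1.24 and -2.22, with 10 of 14 called lower and 1 higher between them. Heat shock genes stood at -2.36 and -3.43, with 3 of 17 called lower between the mutants. These 2 heat shock medians include fitted values of genes without counts, and that of the double mutant was -2.45 over the 14 with a fold or a bound. Directly between the mutants the heat shock median was -0.71, and -0.07 without abi3-12 replicate 2. Photosynthesis genes stood at 1.90 and 2.34, with 13 of 42 called higher and 1 lower. Of LEA genes 20 of 28 were called lower between the mutants and none higher, with medians from wild type of -0.40 and -1.21. Leaving out 1 library moved some of these counts by over 1.5 times. Storage genes called lower numbered 3 without abi3-12 replicate 2 or replicate 1 of the double mutant and 4 without its replicate 3. Oleosins called lower numbered 4 without abi3-12 replicate 2 or replicate 1 of the double mutant and 6 without abi3-12 replicate 1, and photosynthesis genes called higher numbered 4 without abi3-12 replicate 2. With plain library totals 4 storage genes and 4 oleosins were called lower and 21 photosynthesis genes higher.

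Single genes split in the same comparison. AT3G53040, the LEA gene above, stood at 270.0 and 501 CPM in abi3-12 and at 13.1, 8.85 and 8.10 CPM in the double mutant (log2 -5.26, SE 0.31, adjusted p = 6.74e-22), a fall that only a pair of near-identical copies exceeded by fitted value among called genes without overlap and with at least 5 CPM in a group. That pair, AT1G58807 and AT1G59124 (disease resistance proteins), stood at 12.2 and 9.68 CPM in abi3-12 and had no count in either the double mutant or wild type at 18 DAP, at least 43.3-fold lower. The assignment of reads to these copies is uncertain and may differ by library, which was not tested. RAB18 stood at 4478 and 5480 CPM in abi3-12 (log2 -1.61, SE 0.21, adjusted p = 2.26e-08 for the double mutant against it) and AHG1 differed in the same direction (log2 -1.81, SE 0.18, adjusted p = 4.26e-12). By fitted value and under the same conditions, the largest rises over abi3-12 were EXPA2, with no count in abi3-12 and at least 18.8-fold higher, PR1 (AT2G14610), a pathogenesis-related protein, and XTH19 (AT4G30290), a cell wall xyloglucan enzyme. PR1 stood at 37.0, 7.51 and 20.3 CPM against 0.214 and 0.131 CPM in abi3-12 (log2 6.81, SE 0.79, adjusted p = 1.22e-09). XTH19 stood at 13.2, 5.39 and 6.04 CPM against 0.286 and 0 CPM (log2 5.42, SE 0.87, adjusted p = 6.04e-06). In these the double mutant's replicate 1 was the highest library. CYP707A2 was called higher than in abi3-12 (log2 1.88, SE 0.36, adjusted p = 8.74e-05), where it stood at 3.72 and 4.58 CPM. Its adjusted p was 0.0831 where the fit held only the groups compared.

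The triple mutant abi3-12 dog1-4 cyp707a2 was compared with abi3-12 dog1-4 to read the added loss of CYP707A2. Of 20912 genes 1350 (6.46%) were called, 829 (3.96%) higher and 521 (2.49%) lower in the triple mutant. This count moved with the fit, to 216 where it held only the groups compared, and to 803, 761 and 868 without replicate 3 of the double mutant, replicate 2 or replicate 3 of the triple mutant. With plain library totals 2422 were called and 17.7% of them were higher. CYP707A2 stood at 0, 0.882 and 0.895 CPM in the triple mutant and had the largest fitted fall among called genes without overlap and with at least 5 CPM in a group (log2 -4.76, SE 0.46, adjusted p = 5.71e-12). LEA genes were higher in the triple mutant in 12 of 28 and lower in none, oleosins higher in 4 of 14, and photosynthesis genes lower in 14 of 42 and higher in none. With only the groups compared in the fit these counts were 0 of 27, 1 of 14 and 7 of 34. LEA genes called higher numbered 4 without replicate 3 of the double mutant and 7 without replicate 2 of the triple mutant, and photosynthesis genes called lower numbered 9 and 7. Oleosins called higher numbered 1 without replicate 1 of the double mutant and 2 without replicate 3 of the triple mutant. EM6 stood at 43.7, 64.7 and 67.4 CPM in the triple mutant (log2 0.93, SE 0.24, adjusted p = 0.00685), with an adjusted p of 0.0964 without replicate 3 of the double mutant. EXPA2 stood at 0.277, 0 and 0.895 CPM (log2 -3.96, SE 0.94, adjusted p = 0.00439) and ADS1 (AT1G06080), an acyl desaturase, at 2.03, 0.882 and 0 CPM against 6.54, 6.16 and 11.2 CPM in the double mutant (log2 -2.92, SE 0.63, adjusted p = 0.00195; 0.0656 with only the groups compared). Among called genes without overlap and with at least 5 CPM in a group, the largest fitted rises were those of AT1G59124 and AT1G58807, which had no count in the double mutant, and of ATSDI1 (AT5G48850), a sulfur-deficiency induced protein, at 83.7, 324 and 75.7 CPM against 2.69, 0.481 and 1.43 CPM (log2 6.65, SE 0.57, adjusted p = 6.48e-14). AT1G59124 and AT1G58807 are the near-identical copies named above, with an uncertain assignment of reads. DOG1 itself did not pass the test between the 2 lines (-0.11, adjusted p = 0.926).

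The difference from wild type was itself compared between 20 and 18 DAP. It changed in 4320 of 20912 genes (20.7%), upward in 1794 (8.58%) and downward in 2526 (12.1%), a split that turned with plain library totals, where 69.5% of 4082 called changes were upward. Among LEA genes it moved downward in 19 of 28 and upward in none, with medians of -1.21 at 18 DAP and -2.20 at 20 DAP (12 where the fit held only the groups compared). Oleosins moved downward in 9 of 14 (medians -2.22 and -3.73) and heat shock genes in 9 of 17 (-3.43 and -5.75). For photosynthesis genes 4 of 42 were called upward (medians 2.34 and 3.73) and for storage genes 2 of 13 downward (medians -1.80 and -1.51), shares near the 8.58% and 12.1% of all genes, so neither count sets the list apart. HSP17.6A stood at 2677, 4767 and 6254 CPM in wild type at 20 DAP and, in the double mutant, at 0.615, 2.36 and 1.94 CPM (log2 -2.78, SE 0.96, adjusted p = 0.0308 for the change of the effect). That call was lost in 6 of the 12 fits without 1 library, with adjusted p up to 0.16. The amino acid transporter UMAMIT26 (AT1G11460) stood at 4.92, 5.77 and 6.43 CPM against 18.3, 23.1 and 16.5 CPM at 18 DAP and had no count in the double mutant at 20 DAP, when wild type stood at 31.0, 16.2 and 14.1 CPM (adjusted p = 9.99e-06 for the change, 0.06 with DESeq2). BGLU28 stood at 0.440, 1.81 and 0.616 CPM in the double mutant at 20 DAP against 53.5, 35.1 and 17.7 CPM in wild type (adjusted p = 0.00443, and 0.0545 without replicate 2 of the double mutant at 20 DAP).

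**Figure D4:**
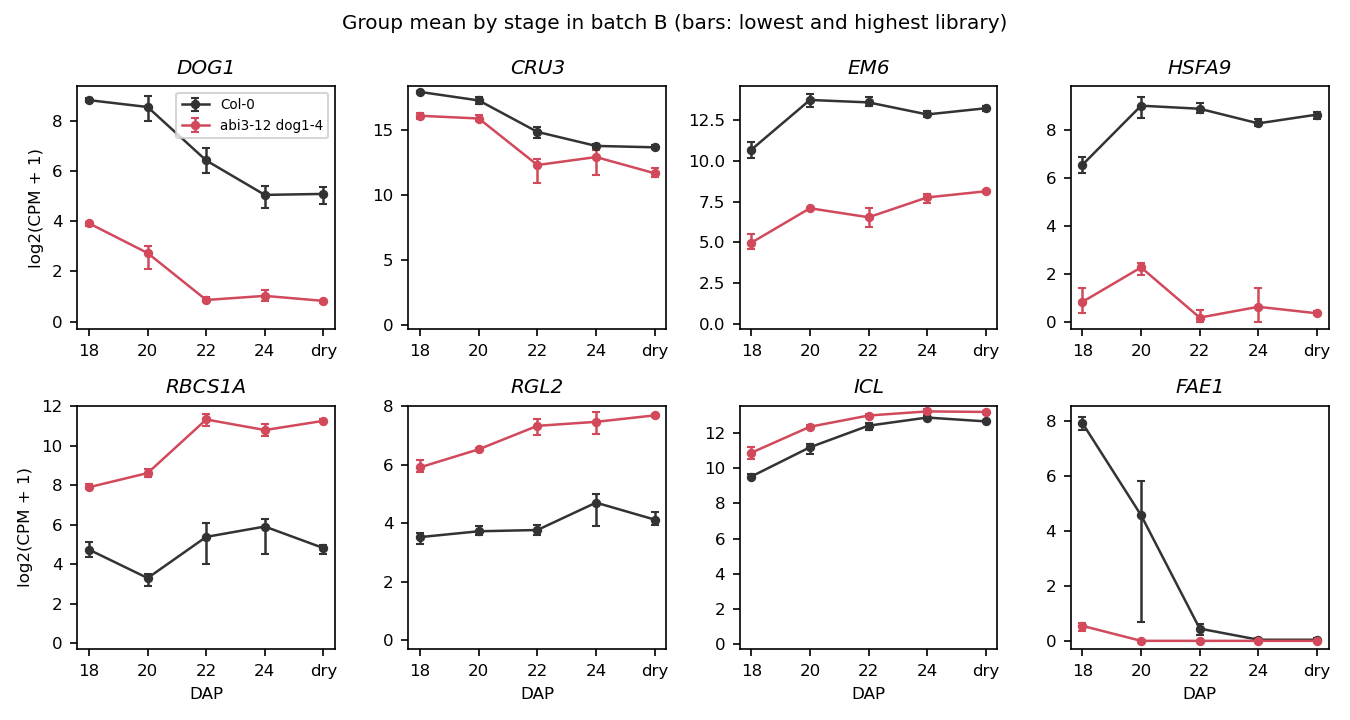
Group mean of 8 genes as log2(CPM + 1) against DAP, from 18 DAP to the dry seed, for Col-0 (grey) and abi3-12 dog1-4 (red) of batch B, with bars from the lowest to the highest of 3 libraries. The 2 genotypes are apart at 18 DAP in all 8 genes, and EM6 and HSFA9 stand far higher in Col-0 than in the double mutant at 20 DAP.

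The later course of the same genes is drawn for orientation. DOG1 in wild type went from 451 ± 26.6 CPM at 18 DAP to 32.1 ± 9.83 CPM at 24 DAP, and in the double mutant from 14.1 ± 0.828 to 1.04 ± 0.342 CPM. The number of genes called between the genotypes was 8621 at 18 DAP, 12286 at 20 DAP, 15730 at 22 DAP, 14513 at 24 DAP and 15443 in the dry seed.

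Wild-type seeds of batch A, which share no library with the comparison, gave a time course to read the 18 DAP libraries against. Over 20072 genes, the 3 libraries of abi3-12 dog1-4 were most like the wild type of 16 DAP, with Spearman's rho of 0.931, 0.942 and 0.938, against 0.912, 0.906 and 0.895 with that of 18 DAP. Libraries of abi3-12 (0.956 and 0.95) and of the triple mutant (0.953, 0.941 and 0.939) were also most like 16 DAP. The wild-type libraries of 18 DAP reached 0.968, 0.972 and 0.969 at their best stage. That stage was 16 DAP for replicates 1 and 3 and 18 DAP for replicate 2. Batch B wild type of 20 DAP was most like batch A wild type of 18 DAP (0.988, 0.974 and 0.961). These coefficients run across genes, which are not independent, and batch and stage cannot be told apart in their level. The best coefficient of each double mutant library was below that of each wild-type library. Of 4670 genes that rose in the batch A wild type from 16 to 18 DAP (22.9% of those tested there), 41.5% were lower and 15.1% higher in abi3-12 dog1-4. Of 5767 genes that fell over these days and were tested in both, 34.1% were higher and 12.5% lower, against 19.1% higher and 14.6% lower among the 9635 genes not called in the course. For the step from 18 to 20 DAP the order was the other way, with 30.6% of the 4977 rising genes higher in the double mutant and 20.7% lower, and 16.6% of the 6077 falling genes higher and 26.1% lower. Among the 9018 genes not called in that step, 22% were higher and 16% lower.

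**Figure D5:**
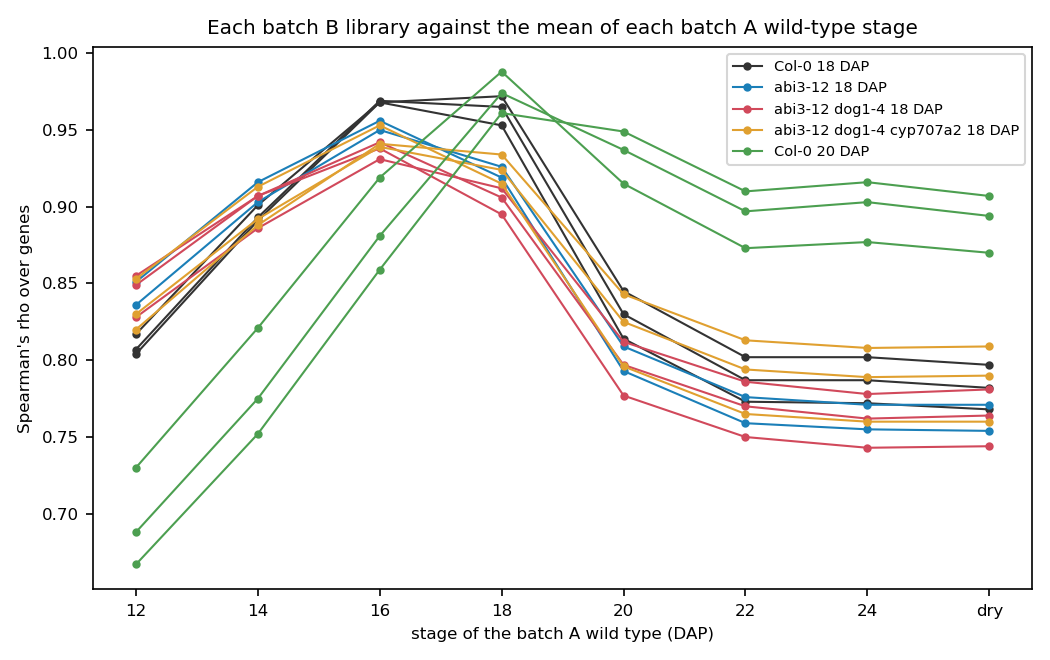
Spearman's rho over 20072 genes (vertical axis) between each batch B library and the mean of each wild-type stage of batch A (horizontal axis, DAP), 1 line per library. The 3 lines of abi3-12 dog1-4 peak at 16 DAP, below the peaks of the Col-0 libraries of 18 DAP. Those of abi3-12 and of the triple mutant also peak at 16 DAP.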

How the data were processed

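RNA of whole seeds was enriched for poly(A) message and made into strand-specific libraries, per the labels' protocols. The authors deposited 1 table of raw counts per gene and library (37336 genes, 123 libraries, whole numbers without scaling). The submitters' processing notes name HISAT2 2.1.0, StringTie 1.3.2, Cufflinks, SAMtools and the build TAIR10, with no role or order; the strand setting and the counting step are not given in the sources used here. Among counts from 4 to 13 of the compared libraries, odd values (13592) outnumbered even ones (11151), whose source was not tested. RefSeq TAIR10.1 gave symbols, products and promoters, and held 37051 of the identifiers.

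Counts were fitted with edgeR 4.0.16 in R 4.3.3. All 92 libraries of batch B (31 groups, 1 coefficient each) were fitted together, so that the groups of 2 and 3 libraries share 1 estimate of spread, after filterByExpr by group with a minimum count of 10 (20912 genes) and with TMM factors. The common dispersion was 0.0168. Each contrast took a two-sided quasi-likelihood test with Benjamini-Hochberg adjustment over all genes, and a gene was called at an adjusted p under 0.05. SEs of log2 fold changes come from the same fit. Where 1 group had no count in any library, the fold is a bound from 3 counts per library; it covers counting error only, since the data hold no molecular identifiers. In list medians the fitted value stands for such genes unless the bound is named. Wild type of batch A was fitted alone (20414 genes). Log2 CPM for likeness and components had a prior count of 2. The fit was checked on simulated counts with known changes in both directions and otherwise equal means in both genotypes. Such counts hold no difference in library makeup, so the check does not bear on the scaling or the bounds.

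Pairs of libraries of 1 group differed by more than counting error (chi-squared per degree of freedom 2.98 to 22.2 over genes whose pair of counts summed to 20 or more), so each counts as 1 replicate. Named genes were the mutated loci, the 10 largest rises and falls without overlap and with at least 5 CPM in a group, 2 genes with the most counts and the 2 largest called changes per list, and the 3 largest in each other comparison; others are marked as named after their values were seen. The members and lists were chosen with earlier results of these data known. Alternatives were RLE factors, library totals, DESeq2 1.42.0, no filter on low counts, only the groups compared, the replicate block and each library left out.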

Additional observations from a re-analysis of the deposited data

Results flagged for a closer look

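The difference between abi3-12 dog1-4 and wild type was not the same at 18 and 20 DAP in 4320 genes, by the test of the difference itself (edgeR's quasi-likelihood test, adjusted p under 0.05). Among the mutated loci and the largest changes, the following stood out for that reason. For DOG1 the log2 fold change went from -4.99 at 18 DAP to -6.06 at 20 DAP (a change of -1.06, adjusted p = 0.0261). For the small heat shock protein gene HSP17.6A it went from -8.64 to -11.42 (-2.78, 0.0308). The amino acid transporter UMAMIT26 went from -1.76 to -10.89 (-9.12, 9.99e-06) and AT1G60750, an NAD(P)-linked oxidoreductase, from -2.63 to -8.95 (-6.32, 0.00276). The GDSL-like lipase AT1G09390 had fitted values of 8.59 and 1.98 (-6.62, 0.0189). In the other direction, AT3G19800 went from 2.07 to 10.04 (7.97, 6.37e-06) and the arginase ARGAH2 from 1.97 to 9.68 (7.72, 0.0185). The genes BGLU28 (7.46, 0.00443), SULTR1;2 (2.83, 0.0161) and ATSDI1 (6.10, 8.94e-10), all linked to sulfur supply, were further below wild type at 18 than at 20 DAP. Where a group had no count, as in BGLU28 and AT1G09390 at 18 DAP and in UMAMIT26, AT1G60750, AT3G19800 and ARGAH2 at 20 DAP, the fitted value is no measured fold. AT1G09390 stood at 4.69, 2.79 and 4.85 CPM in the double mutant at 18 DAP and at 5.01, 5.73 and 4.49 CPM at 20 DAP. In wild type it stood at 1.29 ± 0.177 CPM (SD, n = 3) at 20 DAP. With no count in wild type at 18 DAP it was at least 5.32-fold higher there, so the size of its change is not shown. AT3G19800 stood at 10.1, 11.0 and 9.21 CPM against 1.28, 2.70 and 2.56 CPM at 18 DAP and at 11.3, 9.73 and 12.9 CPM against 0 at 20 DAP. ARGAH2 stood at 2.92, 5.87 and 2.86 CPM against 0, 1.50 and 0.787 CPM at 18 DAP and at 8.09, 7.30 and 11.2 CPM against 0 at 20 DAP. Its difference at 18 DAP was not called with DESeq2 (adjusted p = 0.143). Nor was it called without wild-type replicate 1 (0.0921) or 3 (0.116) or without replicate 2 of the double mutant (0.149).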

How the results depend on the processing

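Scaling moved the comparison with wild type most. With plain library totals 15120 genes were called and 95.5% of them were higher (median of all genes 0.87), against 58.4% with RLE factors, 58.3% with DESeq2 and 60.7% with no filter on low counts. Library totals also gave 8302 calls against abi3-12 and 2422 for the triple mutant against abi3-12 dog1-4. Where the fit held only the groups compared, these 2 comparisons gave 1005 and 216 calls, from fewer samples and genes. Without 1 library each, calls ranged from 6909 to 8073 against wild type, from 1464 to 2308 against abi3-12, from 761 to 1736 for the triple mutant and from 3325 to 4939 for the change to 20 DAP, and the share higher against wild type from 52.4% to 58.6%. Leaving out an abi3-12 library left 1 sample, assumed to vary like the other groups. Single results that changed sign were ABI3 with library totals (0.31), EPR1 (-0.02) and CYP707A2 (-0.05) without replicate 1 of abi3-12 dog1-4, and DOG1 between triple and double mutant without replicate 3 of the triple mutant (0.13). Without 1 library each these ranged from -0.02 to 0.65, from -0.05 to 0.99 and from -0.27 to 0.13. Replicate numbers paired no samples (correlations of same-numbered deviations -0.09, -0.01 and 0); with the replicate block 8577, 2545, 1350 and 4258 genes were called in the 4 comparisons and the share higher was 52.7%. The depth of wild-type replicate 1 limits what low counts can show. Where no value above bears on it, the cause was not tested.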

Other observations

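Genes of sulfate uptake, sulfate assimilation and the sulfur starvation response formed a group of 24 that was picked after its values were seen, so its counts describe these libraries and nothing more. Of 22 tested, 18 were called lower in abi3-12 dog1-4 than in wild type at 18 DAP and 1 higher, with a median log2 fold change of -3.20 (-2.38 with plain library totals). Over all genes 19.5% were called lower and 21.8% higher. ATSDI1 stood at 2.69, 0.481 and 1.43 CPM in the double mutant and 273, 356 and 390.0 CPM in wild type, and at 0.572 and 0 CPM in abi3-12. The APS reductase gene APR2 stood at 3.31, 1.35 and 2.07 CPM against 133, 205 and 198 CPM (log2 -6.29, SE 0.26, adjusted p = 8.29e-31), and sulfite reductase SIR at 45.2, 35.7 and 42.4 CPM against 302, 463 and 398 CPM (log2 -3.24, SE 0.14, adjusted p = 1.06e-29). LSU3, of a family of genes that respond to low sulfur, stood at 1.85, 0.962 and 2.07 CPM against 61.7, 71.8 and 95.6 CPM (log2 -5.53, SE 0.35, adjusted p = 1.05e-21). The ATP sulfurylase gene APS4 was the one called higher, at 17.5, 23.2 and 23.0 CPM against 4.68, 6.14 and 5.12 CPM (log2 1.95, SE 0.18, adjusted p = 1.54e-14).

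In the triple mutant abi3-12 dog1-4 cyp707a2, 16 of the same 22 were called higher than in the double mutant and none lower, against a background of 3.96% of all genes, and 9 of 18 where the fit held only the groups compared. The triple mutant libraries spread widely, with ATSDI1 at 83.7, 324 and 75.7 CPM. Between the double mutant and abi3-12, 2 of the 22 were called higher and none lower, against 6.16% and 6.2% of all genes. Higher calls numbered 6 with plain library totals, 4 with DESeq2 and 0 of 16 where the fit held only the groups compared. ATSDI1 did not pass edgeR's quasi-likelihood test (2.09, adjusted p = 0.354), but was called higher with DESeq2 (2.22, adjusted p = 0.0347).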
